A study of Homo sapiens with 18 samples.

Results

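Cholesterol synthesis and sterol regulation were followed through 30 genes in control and Erastin-treated (10 μM, 72 h) U87MG cells. The genes were chosen by function, with earlier results of these data known: 8 encode enzymes of the mevalonate and isoprenoid steps, 12 encode enzymes of the squalene and sterol steps, 5 encode the sterol-sensing control of the pathway, and 5 encode proteins of cholesterol uptake, transport and export. All 30 were found by gene symbol among the 58302 genes of the count table, and 29 of them passed the filter on low counts. U87MG is an established human glioblastoma cell line, so a single genetic background was measured. The study induced ferroptosis, an iron-dependent cell death, with Erastin, a small molecule that blocks cystine import by system Xc-. RNA-seq compared 2 biological replicates of control cells, which the labels call U87-WT and describe as grown under normal conditions with no vehicle named, with 2 biological replicates treated with Erastin at 10 μM for 72 h. No gene was deleted and no transgene is named in either group. The sources do not say whether replicates came from separate cultures, so the p-values below measure the spread between these libraries.

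Cells build cholesterol from acetyl-CoA. Enzymes of the mevalonate steps make isoprenoid units, which are joined to farnesyl diphosphate. From there the isoprenoid units go either into squalene and the sterols or into geranylgeranyl diphosphate, ubiquinone and protein prenylation. Genes of the pathway are switched on together by the sterol regulatory element-binding proteins (SREBPs), membrane-bound transcription factors that SCAP escorts to the Golgi when sterols are scarce and that the INSIG proteins hold back when sterols are plentiful. When sterols are in excess, liver X receptors (LXRs) switch on export genes such as ABCA1. The pathway bears on ferroptosis because it also makes the precursors of ubiquinone and because some of its sterol intermediates trap lipid radicals.

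The counts totalled 29412656 to 31513519 per library, and 16751 genes were tested. The share of counts on the 30 genes was 0.216% and 0.219% in control and 0.268% and 0.263% in Erastin libraries. Other features of the libraries moved with treatment. All 10 of the cell division markers examined were lower in Erastin-treated cells (median log2 fold change −2.82), with a summed level of 1318 to 1361 CPM (the usual per-million read count, relative to the TMM-scaled library total) in control and 232.6 to 233.1 CPM in Erastin libraries. Mitochondrial transcripts took 7.85% and 7.23% of the control counts and 2.80% and 3.54% of the Erastin counts. Of the 10 glial and glioma markers, VIM and CD44 were the most abundant, GFAP had 41 to 81 counts, SOX2 had at most 6, and AQP4 had none. At an adjusted p under 0.05, 5 of the 7 tested were lower in Erastin-treated cells, as were 23.7% of all tested genes. Of the 10 markers of other cell types, 5 passed the filter on low counts. These 5 summed to 40.1 and 46.2 CPM in control and 5.48 and 7.29 CPM in Erastin libraries, mostly from SNAP25. PECAM1 was also lower, with 138 and 188 counts in control and 31 and 33 in Erastin libraries. VWF went the other way, from 4 and 4 counts to 17 and 32, and KRT5 and PTPRC were at or near 0. The part of these features in the results was not tested. In bulk RNA, fewer expressing cells and less RNA per cell cannot be told apart.

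The sequence before the transcription start was examined because SREBP is known to act on sterol target promoters together with NF-Y, which binds the CCAAT box. Promoter windows of 300 bases (250 before and 50 after the RefSeq start, GRCh38.p14) were matched for 26 of the 30 genes, and ACAT2, FDFT1, SQLE and ABCG1 had no entry. A RefSeq start can differ from the start of the counted gene. The IDI1 window (chr10:1056655-1056954) lies outside the counted gene, which ends at base 1049170. The GGPS1 window (chr1:235326966-235327265) also lies outside its counted gene, which begins at base 235327350. Both IDI1 and GGPS1 are among the genes that rose without a CCAAT box. The windows of MVK, PMVK, CYP51A1, EBP, SC5D, DHCR7, SCAP and NPC1 lie wholly inside their counted genes. A CCAAT box (CCAAT on either strand) was found in 10 of the 12 matched genes that fell, in 3 of the 9 that rose and in 3 of the 5 that passed in neither direction. The same letters were found in 35.7% of 27305 promoters. Among all tested genes with a promoter entry, 39.6% of those lower, 35.2% of those higher and 36.5% of all held them. LBR and SCAP were the 2 matched genes that fell without one, and LSS, SC5D and SREBF2 were the 3 that rose with one. The 10 promoters of genes that fell held 31 CCAAT boxes in all, with a median position 110 bases before the start. Windows of 6 genes, chosen with their direction known, are printed as examples, with the CCAAT box and the SRE-like sequence in capitals. They leave out LBR and SCAP, which fell without a box, and LSS and SC5D, which rose with one. Each runs 5′ to 3′ on the strand of its gene, from 250 bases before the RefSeq start up to the start or to the nearest exon base of the counting annotation.
MSMO1 (chr4:165327419-165327622, plus strand, lower in Erastin-treated cells): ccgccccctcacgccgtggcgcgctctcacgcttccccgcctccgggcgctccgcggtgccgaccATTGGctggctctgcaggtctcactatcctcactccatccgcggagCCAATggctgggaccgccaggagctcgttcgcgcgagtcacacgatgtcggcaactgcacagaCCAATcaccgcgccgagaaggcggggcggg
NSDHL (chrX:152830813-152830966, plus strand, lower): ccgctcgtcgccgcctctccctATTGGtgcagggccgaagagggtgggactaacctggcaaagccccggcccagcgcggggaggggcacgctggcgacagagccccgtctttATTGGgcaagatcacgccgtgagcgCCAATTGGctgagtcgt
DHCR7 (chr11:71448436-71448643, minus strand, lower): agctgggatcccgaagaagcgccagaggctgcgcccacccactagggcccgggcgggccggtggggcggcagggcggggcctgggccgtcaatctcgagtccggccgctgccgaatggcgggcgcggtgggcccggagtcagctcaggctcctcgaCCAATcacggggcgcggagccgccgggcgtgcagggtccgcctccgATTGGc
SREBF2 (chr22:41832855-41833078, plus strand, higher): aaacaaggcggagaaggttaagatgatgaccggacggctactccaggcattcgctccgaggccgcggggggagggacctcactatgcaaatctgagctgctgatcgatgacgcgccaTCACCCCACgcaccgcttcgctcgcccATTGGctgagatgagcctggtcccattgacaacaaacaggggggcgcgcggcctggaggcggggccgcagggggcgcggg
GGPS1 (chr1:235326966-235327215, plus strand, higher): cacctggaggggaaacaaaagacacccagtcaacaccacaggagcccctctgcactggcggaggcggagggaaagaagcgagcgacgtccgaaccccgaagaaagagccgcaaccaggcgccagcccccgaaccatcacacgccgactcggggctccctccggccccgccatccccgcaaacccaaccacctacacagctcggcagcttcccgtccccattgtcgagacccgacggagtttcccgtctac
ABCA1 (chr9:104928238-104928405, minus strand, higher): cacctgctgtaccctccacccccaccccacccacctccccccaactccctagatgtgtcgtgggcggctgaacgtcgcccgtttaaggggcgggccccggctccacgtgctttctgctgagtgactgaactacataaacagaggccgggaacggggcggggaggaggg

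Of the CCAAT boxes in the windows, 3 of 4 in MSMO1, 4 of 5 in NSDHL and both in DHCR7 lie in the stretches shown, and 2 of those in NSDHL share bases. SREBF2, the gene of an SREBP itself, held a CCAAT box and was the only one of the 26 with the SRE-like sequence TCACNCCAC, which lay 133 bases before its start and occurs in 1.15% of all promoters. The shorter form CACNCCAC, which also matches inside the longer one, was found in 4 of the 26 (SC5D, INSIG1, SREBF2 and ABCA1) and in 5.74% of all promoters. GGPS1 and ABCA1, which rose, held no CCAAT box. The GC box GGGCGG was present in 23 of the 26 genes, against 44.6% of all promoters and 67.6% of the promoters of tested genes. The E-box CACGTG was present in 5 of the 26, in 7.43% of all promoters and in 9.88% of the promoters of tested genes. Both strands were searched for each motif. A match describes the letters in the window and says nothing of binding.

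Erastin-treated cells had lower transcript levels of most cholesterol synthesis enzymes and higher levels of the cholesterol exporter ABCA1 and the lysosomal cholesterol transporter NPC1. Of the 29 genes tested, 9 were higher and 15 were lower at an adjusted p under 0.05 (edgeR quasi-likelihood test, Benjamini-Hochberg adjustment over all genes, which gives every adjusted p below), and 5 passed in neither direction. In the background of all tested genes, 23.2% were higher and 23.7% were lower by the same rule. Most changes were smaller than 2-fold: with that limit added, 1 member was higher (ABCA1) and 2 were lower (EBP and ACAT2), against 6.24% and 9.34% of all genes. Control and Erastin libraries did not overlap in 12 members that were higher and 16 that were lower, and all genes gave 36.7% and 36.9%. The median log2 fold change of the 29 was −0.33, beside −0.00 for all genes, whose middle 50% lay between −0.47 and 0.40.

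**Figure D1:**
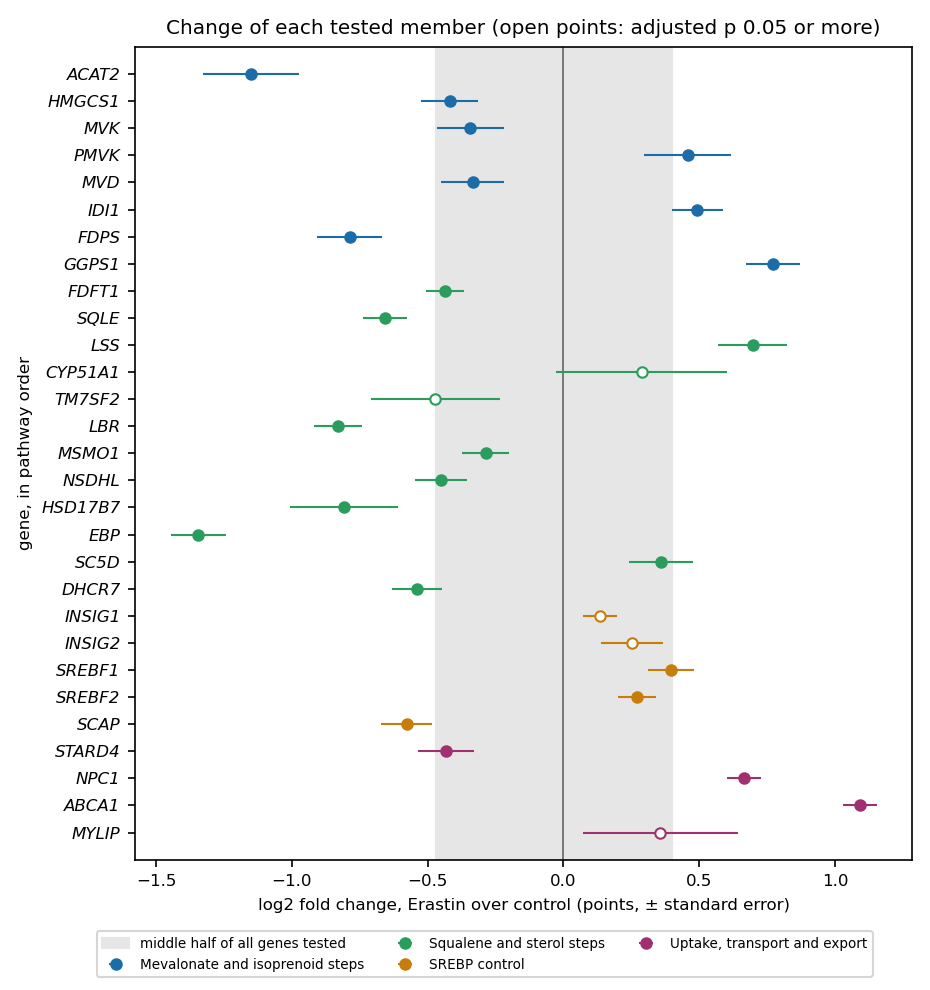
The log2 fold change of Erastin over control (x axis) is plotted for each of the 29 tested genes in pathway order (y axis), with its standard error as the bar, filled points for an adjusted p under 0.05, and a grey band for the middle 50% of all genes tested. EBP (−1.34) and ACAT2 (−1.15) lie farthest to the left and ABCA1 (1.09) farthest to the right.

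The mevalonate steps did not move as a block. Of these 8 enzymes, 3 were higher (PMVK, IDI1 and GGPS1) and 5 were lower (ACAT2, HMGCS1, MVK, MVD and FDPS), and their median log2 fold change was −0.34 (−0.18 without control replicate 1). Their summed level was nearly the same in both groups, at 246 and 238 CPM in control and 244 and 236 CPM in Erastin libraries. The summed level of the 12 sterol-step enzymes went from 562 and 563 CPM in control to 405 and 402 CPM in Erastin libraries, a change of −28.2%. Together the 20 enzymes summed to 804 CPM in control and 644 CPM in Erastin-treated cells (−20.0%), with 5 higher, 13 lower and 2 in neither direction.

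The entry to the pathway was lower. ACAT2 (ENSG00000120437), the cytosolic thiolase that joins 2 molecules of acetyl-CoA, spans bases 159760328 to 159779055 of chromosome 6 (GRCh38). Its level was 11.7 and 15.0 CPM in control libraries and 5.78 and 6.24 CPM in Erastin libraries. The Erastin libraries were both well below the control libraries, and the log2 fold change came to −1.15 with a standard error of 0.176 (adjusted p = 0.000215). Of its exon bases, 52.3% are shared with 2 genes on the opposite strand, and reads from the shared bases were not counted for either gene. ENSG00000112096 covers 43.0%, and had 32205 and 32601 counts in control and 67106 and 66604 in Erastin libraries. TCP1 covers 9.2%, and had 12606 and 13626 counts in control and 11234 and 11140 in Erastin libraries. Without control replicate 2 the log2 fold change of ACAT2 was −0.97, short of 2-fold.

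HMGCS1 (ENSG00000112972), the synthase that makes HMG-CoA, measured 30.8 and 30.3 CPM in control and 23.2 and 22.5 CPM in Erastin libraries. The replicates of this gene lay within 1 CPM of each other in both groups, and its log2 fold change came to −0.42 with a standard error of 0.104 (adjusted p = 0.00583). MVK (ENSG00000110921), mevalonate kinase, measured 28.7 and 23.4 CPM in control and 20.8 and 20.4 CPM in Erastin libraries, and its log2 fold change was −0.34 (adjusted p = 0.0402). The following kinase, PMVK (ENSG00000163344), moved the other way, from 22.1 and 15.4 CPM in control to 27.6 and 23.8 CPM in Erastin libraries (log2 fold change 0.46, adjusted p = 0.0346). MVD (ENSG00000167508), the decarboxylase that yields isopentenyl diphosphate, measured 44.6 and 35.5 CPM in control and 32.1 and 31.4 CPM in Erastin libraries (log2 fold change −0.33, adjusted p = 0.0328). In these last 3 enzymes the control libraries lay farther apart than the Erastin libraries, and the calls were weak. MVK and MVD missed the threshold with DESeq2 at nearly the same log2 fold changes of −0.34 and −0.33 (adjusted p = 0.0888 and 0.055). Without control replicate 1 their log2 fold changes were smaller, at −0.19 and −0.16 (adjusted p = 0.324 and 0.314), and they also missed it without Erastin replicate 1 (0.115 and 0.0907) or Erastin replicate 2 (0.133 and 0.105). PMVK had a log2 fold change of 0.74 without control replicate 1 (adjusted p = 9.29e-06), of 0.21 without control replicate 2 (adjusted p = 0.247) and of 0.34 without Erastin replicate 1 (adjusted p = 0.195).

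The branch around farnesyl diphosphate held opposite changes. IDI1 (ENSG00000067064), the isomerase that balances both isoprenoid units, rose from 35.3 and 40.7 CPM in control to 54.1 and 52.8 CPM in Erastin libraries (log2 fold change 0.49, standard error 0.0943, adjusted p = 0.00108). FDPS (ENSG00000160752), which makes farnesyl diphosphate, fell from 42.6 and 44.3 CPM to 22.1 and 28.2 CPM (log2 fold change −0.79, standard error 0.12, adjusted p = 0.000207). GGPS1 (ENSG00000152904), which lengthens farnesyl diphosphate to geranylgeranyl diphosphate for protein prenylation, rose from 30.5 and 33.4 CPM to 58.4 and 50.7 CPM (log2 fold change 0.77, standard error 0.1, adjusted p = 5.93e-05). The groups did not overlap for any of these 3 genes. Antisense genes lie over 17.9% of the exon bases of IDI1 (IDI2-AS1, at most 3 counts in a library) and 18.6% of those of FDPS (RUSC1-AS1, 247 and 270 counts in control and 163 and 147 in Erastin libraries).

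**Figure D2:**
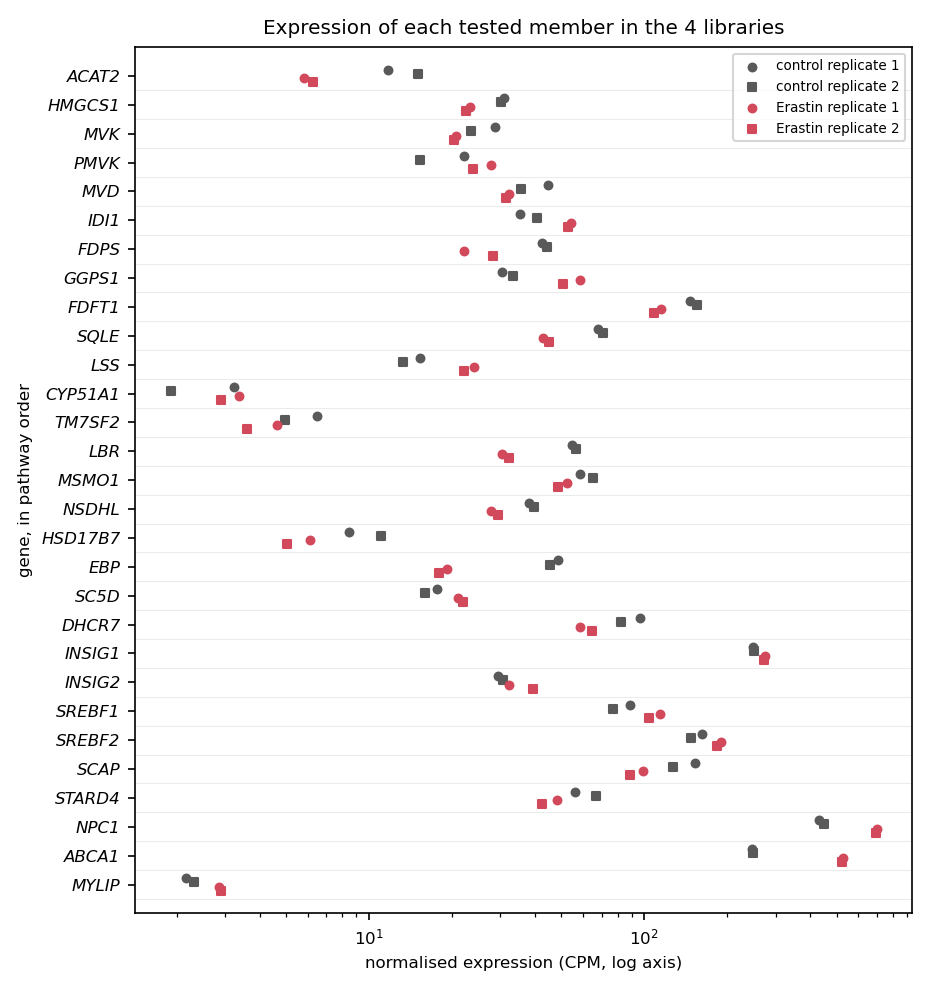
Normalised expression in CPM (x axis, log scale) of each tested gene in pathway order (y axis) is shown in the 4 libraries, with grey for control, red for Erastin, circles for replicate 1 and squares for replicate 2. The colours overlap for CYP51A1 alone among the 29 genes.

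The enzymes that commit farnesyl diphosphate to sterols were lower. FDFT1 (ENSG00000079459), squalene synthase, was the most abundant of the 20 enzymes per kilobase of exon. Its level was 146 and 155 CPM in control and 115 and 109 CPM in Erastin libraries, which gave −0.43 on the log2 scale with a standard error of 0.0701 (adjusted p = 0.000312). SQLE (ENSG00000104549), squalene epoxidase, which is rate-limiting for the sterol branch, fell from 68.0 and 70.9 CPM to 43.0 and 45.1 CPM (log2 fold change −0.66, standard error 0.0794, adjusted p = 3.30e-05). LSS (ENSG00000160285), which closes the rings to form lanosterol, went against its neighbours, with 15.3 and 13.2 CPM in control and 24.0 and 22.2 CPM in Erastin libraries (log2 fold change 0.70, standard error 0.126, adjusted p = 0.000734). When its longest transcript was divided into 31-base words, 79.0% of them were also found on the alternate scaffolds of GRCh38, and whether those scaffolds were part of the authors' index is not given in the sources used here.

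CYP51A1 (ENSG00000001630), the cytochrome P450 that removes a methyl group from lanosterol, had only 99, 59, 101 and 91 counts in the control and Erastin libraries in turn. These were the lowest counts among the enzymes, and the groups overlapped (log2 fold change 0.29, standard error 0.316, adjusted p = 0.49). Other genes of the annotation cover 82.2% of its exon bases, LRRD1 on the same strand alone 78.8%, which leaves 725 bases where its reads could be counted. Its level in these cells therefore cannot be read from the table, and its log2 fold change ranged from −0.05 without control replicate 2 to 0.72 without control replicate 1.

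The next reduction is shared by LBR and TM7SF2. LBR (ENSG00000143815), which is also a receptor for lamin B in the inner nuclear membrane, measured 54.7 and 56.7 CPM in control and 30.3 and 32.4 CPM in Erastin libraries (log2 fold change −0.83, standard error 0.0892, adjusted p = 1.30e-05). TM7SF2 (ENSG00000149809) was scarcer, with 6.48 and 4.96 CPM in control and 4.65 and 3.60 CPM in Erastin libraries, and its log2 fold change of −0.47 did not pass (standard error 0.238, adjusted p = 0.126). It passed without control replicate 2 (−0.66, adjusted p = 0.033), whereas it was −0.27 without control replicate 1 (adjusted p = 0.482) and −0.30 without Erastin replicate 2 (adjusted p = 0.438).

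All 3 enzymes that strip the remaining methyl groups from the sterol ring were lower. MSMO1 (ENSG00000052802), the methyl sterol oxidase, measured 58.2 and 65.3 CPM in control and 52.6 and 48.8 CPM in Erastin libraries (log2 fold change −0.29, adjusted p = 0.0181). NSDHL (ENSG00000147383), the sterol dehydrogenase that follows, fell from 38.3 and 39.7 CPM to 27.7 and 29.3 CPM (log2 fold change −0.45, standard error 0.097, adjusted p = 0.00244). HSD17B7 (ENSG00000132196), the ketosterol reductase, fell from 8.44 and 11.0 CPM to 6.08 and 5.03 CPM (log2 fold change −0.81, standard error 0.199, adjusted p = 0.00568). MSMO1 was the smallest of the changes called in the pathway apart from SREBF2, and its adjusted p was 0.0986 without control replicate 2 and 0.13 without Erastin replicate 2. The pseudogene HSD17B7P2 shares 19.9% of the 31-base words of HSD17B7 and had 25 to 53 counts per library.

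EBP showed the largest change of all 29 genes. EBP (ENSG00000147155) encodes the sterol isomerase that shifts a double bond in the ring, and it spans bases 48521158 to 48528716 of chromosome X. Its level was 48.7 and 45.5 CPM in control and 19.2 and 17.9 CPM in Erastin libraries. The Erastin libraries stood at 0.394 times the control level, or −1.34 on the log2 scale with a standard error of 0.102 (adjusted p = 7.26e-07), and each of 12 alternatives gave a value between −1.40 and −1.29. Its promoter window (chrX:48521558-48521857), which lies inside the counted gene, held 3 CCAAT boxes.

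The last desaturation and reduction diverged. SC5D (ENSG00000109929), the desaturase that produces the direct precursor of cholesterol in this branch, measured 17.6 and 15.9 CPM in control and 21.1 and 22.0 CPM in Erastin libraries (log2 fold change 0.36, standard error 0.119, adjusted p = 0.027). DHCR7 (ENSG00000172893), the reductase that consumes that precursor, measured 96.3 and 82.2 CPM in control and 58.2 and 64.5 CPM in Erastin libraries (log2 fold change −0.54, standard error 0.0911, adjusted p = 0.000443). The precursor, a sterol with a conjugated pair of double bonds, is one of the intermediates known to trap lipid radicals. The SC5D call was lost with DESeq2 (adjusted p = 0.073) and without control replicate 2 (0.134), Erastin replicate 1 (0.0787) or Erastin replicate 2 (0.136).

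Ratios of counts within a library need no scaling between libraries, and 7 ratios were formed for pairs chosen after their values were seen, so they are given as descriptions. SC5D over DHCR7 was 0.183 and 0.194 in control and 0.362 and 0.340 in Erastin libraries. LSS over SQLE, 2 enzymes that act in turn, was 0.225 and 0.187 in control and 0.558 and 0.493 in Erastin libraries. GGPS1 over FDPS was 0.715 and 0.754 in control and 2.64 and 1.80 in Erastin libraries, and GGPS1 over FDFT1, the enzymes that compete for farnesyl diphosphate, went from 0.208 and 0.215 to 0.510 and 0.467. The Erastin libraries lay above the control libraries in each of these 4 ratios. With 2 libraries a group, the smallest two-sided p that exact permutation allows is 0.333.

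**Figure D3:**
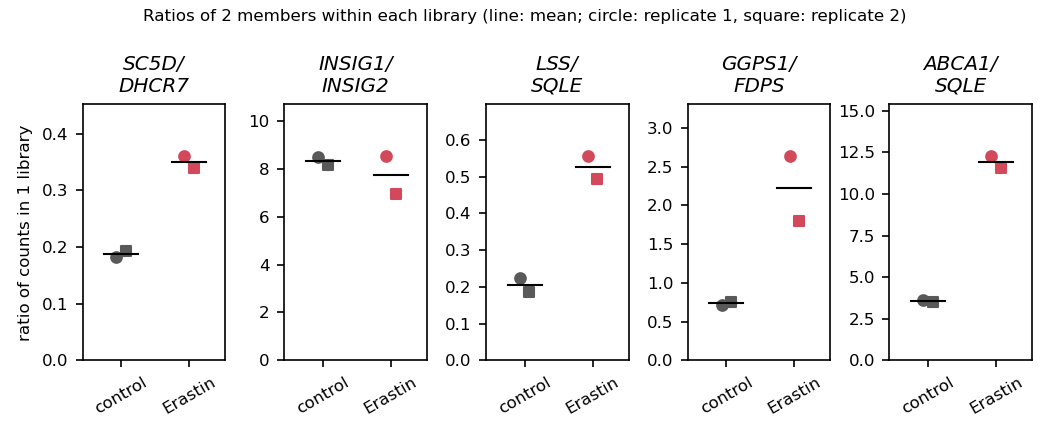
The ratio of the counts of a pair of genes within each library (y axes, starting at 0, a scale for each panel) is shown for control and Erastin libraries, with circles for replicate 1, squares for replicate 2 and a line at the mean. The Erastin points lie above the control points except for INSIG1 over INSIG2, where 8.49 and 8.15 in control overlap 8.55 and 6.93 in Erastin libraries.

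The genes that control the pathway did not move in 1 direction, and none reached 2-fold. Of 5, SREBF1 and SREBF2 were higher, SCAP was lower, and INSIG1 and INSIG2 passed in neither direction. The median log2 fold change was 0.25, or 0.14 without Erastin replicate 2.

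SREBF2 (ENSG00000198911), whose product chiefly drives the cholesterol genes, measured 161 and 148 CPM in control and 190 and 184 CPM in Erastin libraries (log2 fold change 0.27, standard error 0.0704, adjusted p = 0.00737, and 0.0767 without Erastin replicate 1). SREBF1 (ENSG00000072310), whose product chiefly drives the fatty acid genes, rose from 88.6 and 77.1 CPM to 114 and 104 CPM (log2 fold change 0.40, standard error 0.084, adjusted p = 0.00217). Both SREBP genes thus had more transcript in the libraries where 13 of the 20 enzymes had less. The SREBF1 over SREBF2 ratio was 0.549 and 0.522 in control and 0.601 and 0.568 in Erastin libraries.

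SCAP (ENSG00000114650), the escort of SREBP, had the largest change of the 5, from 153 and 127 CPM in control to 98.8 and 88.8 CPM in Erastin libraries (log2 fold change −0.58, standard error 0.093, adjusted p = 0.000315). INSIG1 (ENSG00000186480), a known SREBP target that retains SCAP in the endoplasmic reticulum, was the most abundant gene of the 30 per kilobase, at 68.4 CPM per kilobase in control and 75.1 in Erastin-treated cells. Its level was 249 and 251 CPM in control and 275 and 273 CPM in Erastin libraries. The groups did not overlap, yet the log2 fold change of 0.13 did not pass (standard error 0.0627, adjusted p = 0.101), whereas scaling by library totals gave 0.18 (adjusted p = 0.0293). INSIG2 (ENSG00000125629) measured 29.3 and 30.7 CPM in control and 32.2 and 39.4 CPM in Erastin libraries (log2 fold change 0.25, standard error 0.114, adjusted p = 0.0902), and it passed with library totals (adjusted p = 0.0476). Its value rested on the Erastin replicates, at 0.39 without replicate 1 (adjusted p = 0.0347) and 0.10 without replicate 2 (adjusted p = 0.612).

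The transport genes included ABCA1, the largest rise of the 29 genes tested. Of 4 tested, ABCA1 and NPC1 were higher, STARD4 was lower and MYLIP passed in neither direction, and the median log2 fold change was 0.51. The summed level of the group went from 734 and 766 CPM in control to 1280 and 1262 CPM in Erastin libraries.

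ABCA1 (ENSG00000165029), which exports cholesterol to apolipoproteins and is a classic LXR target, spans bases 104781002 to 104928237 of chromosome 9. Its level was 246 and 248 CPM in control and 529 and 522 CPM in Erastin libraries. The replicates were close together and the groups far apart, a 2.13-fold difference (log2 fold change 1.09, standard error 0.0623, adjusted p = 6.50e-08). Within a library, ABCA1 had 3.61 and 3.49 times the counts of SQLE in control and 12.3 and 11.6 times in Erastin libraries. ABCG1 (ENSG00000160179), the other exporter among the 30 and also an LXR target, had 0 counts in all 4 libraries, and a count of 0 allows up to 3 counts in a library.

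NPC1 (ENSG00000141458), which moves cholesterol out of lysosomes, measured 430 and 449 CPM in control and 699 and 695 CPM in Erastin libraries (log2 fold change 0.67, standard error 0.0624, adjusted p = 4.17e-06). It carried the most counts of the 30 in every library. STARD4 (ENSG00000164211), a carrier of sterol between membranes and a known SREBP target, fell from 55.9 and 66.6 CPM to 48.2 and 42.6 CPM (log2 fold change −0.43, standard error 0.102, adjusted p = 0.00422). The antisense gene STARD4-AS1 shares 2.18% of its exon bases and had 422 and 463 counts in control and 73 and 48 in Erastin libraries. MYLIP (ENSG00000007944), an LXR-induced ubiquitin ligase for lipoprotein receptors, was scarce, with 66 and 72 counts in control and 85 and 91 in Erastin libraries (log2 fold change 0.36, standard error 0.284, adjusted p = 0.331).

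Genes linked to the pathway were read from lists written from general knowledge, with up to 4 genes named by the size of their change. Of 17 fatty acid genes tested that respond to SREBP, 9 were higher and 4 were lower (median log2 fold change 0.22). The cholesterol enzymes had 5 higher and 13 lower of 20, and all tested genes had 23.2% higher and 23.7% lower. SCD, the desaturase that makes monounsaturated fatty acids, went from 640 and 628 CPM in control to 1306 and 1356 CPM in Erastin libraries (log2 fold change 1.07, adjusted p = 7.61e-08). FADS1, a desaturase of polyunsaturated fatty acids, rose by 0.67 on the log2 scale (adjusted p = 1.06e-05). ACACB, the mitochondrial acetyl-CoA carboxylase, had a log2 fold change of −0.82 (adjusted p = 0.000126). ACACA, its cytosolic counterpart, had 281 and 212 counts in control and 285 and 662 in Erastin libraries, so its log2 fold change of 0.94 (adjusted p = 0.0208) came from Erastin replicate 2.

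Of 24 genes for SREBP processing and sterol-regulated degradation in the endoplasmic reticulum, 8 were higher and 6 lower (median −0.08). All tested genes gave 23.2% higher and 23.7% lower. RNF145, a ubiquitin ligase of sterol sensing, rose by 0.93 on the log2 scale (adjusted p = 3.62e-07), and PAQR3, which tethers SCAP and SREBP to the Golgi, rose by 0.64 (adjusted p = 1.32e-05). FAF2, of endoplasmic reticulum degradation, rose by 0.61 (adjusted p = 3.24e-05). SEC23A, of the vesicle coat that carries SCAP out of the endoplasmic reticulum, had a log2 fold change of −0.55 (adjusted p = 4.73e-05).

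Of 9 LXR receptors and targets tested beside ABCA1, 2 were higher and 4 lower (median −0.15), where 23.2% and 23.7% of all tested genes were. NR1H2, which encodes LXR beta, rose from 124 and 117 CPM to 205 and 199 CPM (log2 fold change 0.74, adjusted p = 3.44e-06). SMPDL3A, an LXR-induced phosphodiesterase, rose by 0.81 (adjusted p = 0.00188). TTC39B had a log2 fold change of −0.61 (adjusted p = 0.003). ABCA1 is counted among the transport genes and not in this list.

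Of 25 genes for cholesterol trafficking and storage, 7 were higher and 9 lower (median −0.01), beside 23.2% and 23.7% of all tested genes. TMEM97, a sterol-responsive partner of NPC1, fell from 26.9 and 25.2 CPM to 11.6 and 11.0 CPM, a log2 fold change of −1.20 (adjusted p = 7.16e-06). GRAMD1A and GRAMD1C, which carry cholesterol from the plasma membrane to the endoplasmic reticulum, had log2 fold changes of −0.74 (adjusted p = 1.74e-05) and −1.02 (adjusted p = 0.00404). SOAT1, which esterifies cholesterol for storage, rose from 75.2 and 76.3 CPM to 133 and 125 CPM (log2 fold change 0.77, adjusted p = 3.30e-06).

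**Figure D4:**
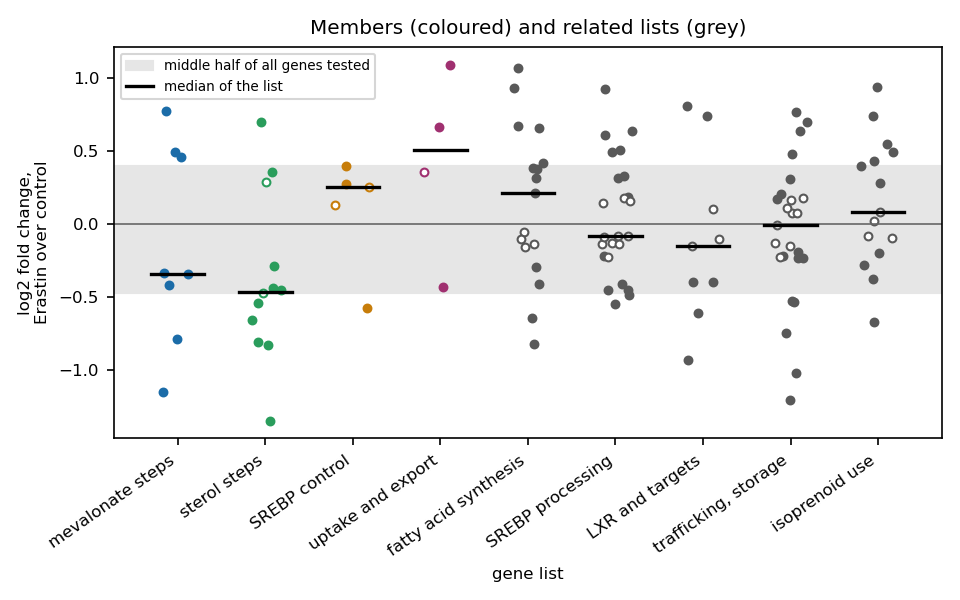
Each point is the log2 fold change of a gene (y axis), grouped by list (x axis), with the 4 groups of the pathway in colour, related lists in grey, filled points for an adjusted p under 0.05, a black line at each list's median and a grey band for the middle 50% of all genes. Among the lists plotted, which leave out the division and cell type markers, sterol-step enzymes have the lowest median (−0.46) and the uptake and export genes the highest (0.51).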

How the data were processed

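Total RNA of U87MG cells was sequenced in 4 libraries. The deposited table held raw counts of reads per gene for each library, made by the authors without normalization, and its whole numbers showed none of the decimals that estimated counts would have. Per the submitters' processing notes reads were aligned to hg38 with HISAT2 2.1.0. The notes name featureCounts 2.0.4 and the file header featureCounts 2.0.3, whereas the methods text names htseq-count. Per the header, counting used the Ensembl release 90 annotation without strand, left out reads that matched several genes or places, and counted the reads of a pair separately, so totals overstate precision. Totals lay between 29412656 and 31513519 counts.

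The analysis used edgeR 4.0.16 under R 4.3.3. With its filterByExpr (minimum count 10), 16751 genes were kept, TMM factors lay between 0.971 and 1.02, and the quasi-likelihood test compared 2 Erastin with 2 control libraries, two-sided, with Benjamini-Hochberg adjustment over all genes. A gene was called at an adjusted p under 0.05, and a second rule also required 2-fold (1 on the log2 scale), as in the methods text. The biological coefficient of variation was 10.3%. CPM were computed with TMM factors, and standard errors from the F statistic of each fold change. Symbols were joined by Ensembl identifier. Overlaps used the exons of the counting table, shared 31-base words used transcripts of GENCODE release 44, and promoters came from RefSeq.

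The 30 genes and all lists were chosen with earlier results of these data known, so no list is independent evidence. All 30 genes were named, and of each related list at most 4 called genes with the largest change. RABGGTB and PDSS1 were named as well, beside other genes of their list. The values of 1 gene of the related lists are not reported here. Alternatives were RLE size factors, DESeq2 1.42.0, scaling by library totals, no filter, at least 10 counts in every library, a replicate block, thinned counts, halved counts, glmTreat and each library left out in turn. The scripts were tested on simulated data. ChIP-seq, HiChIP, viability and protein data were not analysed here.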

Additional observations from a re-analysis of the deposited data

How the results depend on the processing

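Of the 29 genes tested, each kept its direction under DESeq2, RLE size factors, library totals, both other filters, thinned counts, halved counts and the replicate block; CYP51A1 alone reversed, without control replicate 2 (log2 fold change −0.05457, adjusted p = 0.917; 0.7191 without control replicate 1). DESeq2 ended 3 calls (MVK, MVD and SC5D). Library totals, which moved the median of all genes to 0.0471, ended 2 (MVK and MVD) and added 2 (INSIG1 and INSIG2), and gave medians of −0.2864 for the mevalonate steps, −0.4106 for the sterol steps and 0.5608 for transport. Thinned counts gave −0.4837 for the sterol steps. Tested against a 2-fold change by glmTreat, 0 members were higher and 1 was lower (EBP), and 377 genes were higher and 748 lower. Leaving out each library in turn gave 7 to 9 members higher and 12 to 15 lower, and 1 to 2 lower by 2-fold, the lower count without control replicate 2. The medians then ranged from −0.4654 to −0.1769 for the mevalonate steps, −0.5217 to −0.4435 for the sterol steps, 0.142 to 0.2476 for SREBP control and 0.4685 to 0.5451 for transport. The cause of these shifts was not tested. The labels do not say whether replicate numbers pair the libraries. Deviations of same-numbered libraries correlated at 0.0203 over genes, which cannot show how the libraries were handled. The fit with a replicate block called 9 members higher and 15 lower and changed no member's call.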

Other observations

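Of 15 genes that use the isoprenoid products of the mevalonate steps, 7 were higher and 4 lower, where 23.2% and 23.7% of all genes were. Their median log2 fold change was 0.09, inside the middle 50% of all genes, and the summed level was 811 to 836 CPM in control and 859 to 861 CPM in Erastin libraries. RCE1, the protease that trims prenylated proteins, went from 16.5 and 13.7 CPM to 29.5 and 28.5 CPM (log2 fold change 0.94, adjusted p = 6.70e-05 from edgeR). RABGGTA, a subunit of the transferase that geranylgeranylates Rab proteins, rose by 0.74 on the log2 scale (adjusted p = 0.000418). RABGGTB, the gene of its other subunit, was lower (log2 fold change −0.38, adjusted p = 0.00207). Of the ubiquinone genes, COQ2 was lower at −0.67 (adjusted p = 0.00262) and PDSS2 was higher at 0.55 (adjusted p = 0.000282). PDSS1 passed in neither direction (−0.08, adjusted p = 0.714).

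Of 7 enzymes that make or clear oxysterols, 4 passed the low-count filter. HSD3B7, of bile acid synthesis, rose from 14.8 and 17.5 CPM to 21.4 and 23.8 CPM (log2 fold change 0.48, adjusted p = 0.00881), and none of the other 3 passed. CYP7B1 had 0 counts in all 4 libraries.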
